A study of Mus musculus with 6 samples.

Results

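The 7 genes described here encode enzymes and regulators of cholesterol synthesis. They are Hmgcs1, Idi1, Fdft1, Sqle and Cyp51, which encode enzymes of the route, and Srebf2 and Insig1, which encode its main transcription factor and a brake on it. They were chosen by their symbols, as 7 of the 17607 genes in the deposited table, and all 7 were among the 15882 genes that entered the test. Earlier results of these data were known when the choice was made. RNA was sequenced from auditory nerve that had been microdissected out of the cochlea of CBA/CaJ mice, an inbred strain. The old group held 3 mice aged 2.5 years and the young group 3 mice aged 2 months, with no other treatment named in the labels. Each library holds the nerves of both ears of 1 mouse, and each replicate is a different animal. The sources used here do not give the sex of the mice.

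Cholesterol is built from acetyl-CoA through mevalonate, isoprenoid units and squalene, which is closed into lanosterol and then trimmed and reduced to cholesterol. SREBP2, the product of Srebf2, is held in the endoplasmic reticulum with its escort SCAP while sterols are plentiful, because INSIG proteins keep SCAP there. When sterols run low the complex moves to the Golgi, where proteases release the active factor, which switches on the synthesis enzymes and Insig1 itself. Myelin is rich in cholesterol, and Schwann cells make much of what they need within the nerve.

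Recovered reads per library ran from 34587979 to 38835751 in old nerves and from 35213213 to 40841478 in young nerves. Each of the 7 genes had between 1663 and 16524 recovered reads in every library. Values are read counts that the authors normalised by library, given as mean ± SD with n = 3 per group, and a log2 fold change, with its SE, is the old mean minus the young mean of log2(value + 1), which understates changes of low genes. Adjusted p-values come from limma with Benjamini-Hochberg adjustment over the 15882 tested genes, and a gene passed with an adjusted p under 0.05. An exact permutation test of 3 against 3 cannot go below p = 0.1, so a single gene cannot pass without the model.

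Of the 7 genes, 2 fell in old nerves, Srebf2 and Cyp51, and none rose in limma. At an unadjusted p under 0.05 there were 4 lower and 2 higher. The share of all tested genes at that threshold was not taken, but it cannot be below the 34.6% that passed by adjusted p. Those unadjusted counts therefore show nothing particular to the 7 genes. By adjusted p edgeR called 1 lower, and DESeq2 called 3 lower and 1 higher. Over all 15882 tested genes edgeR called 5418 and DESeq2 6210, both directions together. In limma 18.7% of all tested genes passed as lower and 15.9% as higher, 34.6% in all. With smooth trends in transcript length and GC content removed from each library, 3 of the 7 were lower (12.7% of all genes so tested) and 1 was higher (10.2%). The 3 old libraries lay on 1 side of the 3 young libraries in 6 of the 7 genes, and Idi1 was the exception. Among all tested genes 51.8% had groups that did not overlap. The old libraries were the lower ones in 4 of the 7 genes, against 26.3% of all tested genes, and the higher ones in 2, against 25.5%. The median log2 fold change of the 7 genes was -0.24, and that of all tested genes was -0.00080.

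**Figure D1:**
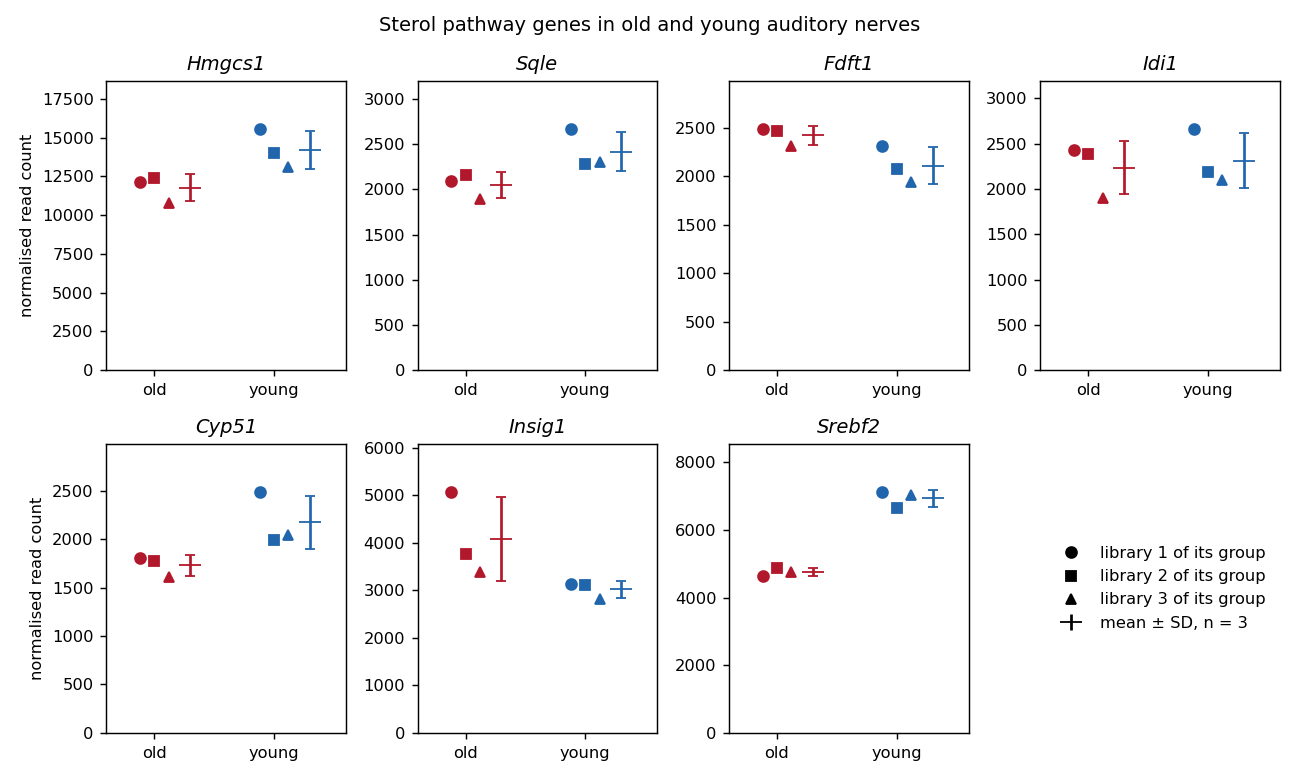
Normalised read counts of the 7 genes by library, old left of young, each panel from 0, with bars for mean ± SD (n = 3 mice). Srebf2 stands apart most clearly, at 4632 to 4863 in old nerves and 6652 to 7119 in young nerves, while the groups of Idi1 overlap.

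Marker genes of several cell types also differed between the same libraries. Beside the counts that follow, 18.7% of all tested genes fell and 15.9% rose. In bulk tissue, fewer cells of a type and less RNA per cell cannot be told apart. Of 14 Schwann cell myelin genes 6 fell and 1, Egr2, rose. The summed level of that list ran from 456087 to 507898 in old nerves and from 458602 to 528551 in young nerves. Of 12 neuronal genes 6 fell, with sums from 328834 to 467616 in old nerves and from 507062 to 527980 in young nerves. Of 10 macrophage genes 10 rose, with sums from 11119 to 16199 in old nerves and from 4369 to 5702 in young nerves. Of 10 satellite glia and astrocyte genes 4 rose, with sums from 192038 to 209852 in old nerves and from 135655 to 146438 in young nerves. Of 10 bone genes 5 fell, with sums from 110196 to 121464 in old nerves and from 114942 to 115457 in young nerves. That sum was mostly 1 gene, Spp1, which averaged 113768 in old nerves and 107872 in young nerves. Of the 10 genes 9 had a negative log2 fold change, with a list median of -1.18. A sum follows the highest genes of its list, here and in the other lists, and can hide how the rest moved. Of 8 fibroblast genes 3 fell, with sums from 40880.2 to 78575 in old nerves and from 65699 to 75896 in young nerves. Of 8 oligodendrocyte genes 1, Aspa, rose, with sums from 39387 to 43317 in old nerves and from 43032 to 45275 in young nerves. Of 5 tested erythroid genes none passed in limma (3 higher at an unadjusted p under 0.05, and 2 called by edgeR and 3 by DESeq2), with sums from 3279 to 15859 in old nerves and from 2386 to 4319 in young nerves. The 3 fat cell markers in the table were low, with sums from 26.1 to 47.6 in old nerves and from 8.81 to 25.4 in young nerves. Adipoq averaged 2.63 in old nerves and 3.83 in young nerves, with groups that overlapped, and Fabp4 averaged 9.31 in old nerves and 2.21 in young nerves, with groups that did not. Pparg, the 1 of them tested, averaged 24.3 in old nerves and 8.97 in young nerves and did not pass in limma (1.25 ± 0.44, adjusted p = 0.0649), while edgeR called it higher. The part of these cell types in the values of the sterol genes was not tested.

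Srebf2 encodes the precursor of the transcription factor SREBP2. It stood at 4632, 4863 and 4748 in old 1, 2 and 3, against 7119, 6652 and 7023 in young 1, 2 and 3. Every old library was below every young one, and the spread within each group was small beside the gap. The mean was 4748 ± 115 in old nerves and 6932 ± 247 in young nerves, a log2 fold change of -0.55 ± 0.06 (95% interval -0.69 to -0.40, adjusted p = 0.00445 in limma). It passed in each of the 6 fits with 1 library left out, with adjusted p-values from 0.00215 to 0.0272. Its change was larger in size than that of 74.9% of tested genes. Long transcripts as a class were lower in the old libraries (Spearman correlation of transcript length with log2 fold change -0.382 over 14896 genes, which are not independent replicates). The Srebf2 transcript has 5077 nt and a GC content of 57.9%. Both trends were removed in the same step, and the part of each in the Srebf2 value was not tested. With length and GC trends removed, Srebf2 had a log2 fold change of -0.17 and did not pass (adjusted p = 0.121).

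Insig1, a target of SREBP2 whose product holds SCAP in the endoplasmic reticulum, lay on the other side. It stood at 5068, 3755 and 3389 in old 1, 2 and 3, against 3134, 3113 and 2819 in young 1, 2 and 3. All old libraries were above all young ones, and old 1 stood well above the other old mice. The means were 4070.5 ± 883 in old nerves and 3022 ± 176 in young nerves, with a log2 fold change of 0.41 ± 0.15 (95% interval 0.07 to 0.75), which did not pass in limma (adjusted p = 0.0646). Without old 1 the value was 0.24 (adjusted p = 0.0822), and without old 3 it was 0.53 and passed (adjusted p = 0.0236). In the authors' deposited table Insig1 passed, with a fold change of 1.35 and an FDR of 0.0254. With the length and GC trends removed it was at 0.30 (adjusted p = 0.156).

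Hmgcs1 encodes the cytosolic HMG-CoA synthase, which joins acetyl units early in the route. It stood at 12126, 12397 and 10770.1 in old 1, 2 and 3, against 15536, 14001 and 13099.6 in young 1, 2 and 3. The groups did not overlap, although old 2 and young 3 were close. The mean was 11764 ± 872 in old nerves and 14212 ± 1232 in young nerves, a log2 fold change of -0.27 ± 0.09 that did not pass (95% interval -0.49 to -0.05, adjusted p = 0.0587). In the authors' deposited table its fold change was -1.21 with an FDR of 0.0269, written there as the negative inverse. With the length and GC trends removed the value was -0.40 and passed (adjusted p = 0.0151). Of its 4594 exonic bases 557 are shared with Gm48342 on the opposite strand, which was not analysed here. Reads from such shared bases cannot be told apart without strand, here or for Idi1, Fdft1 and Cyp51.

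Promoters are shown for Srebf2 and Insig1, which lay on opposite sides, and for Hmgcs1, the member with the highest level. RefSeq sequences (GRCm38.p6, 250 bases before to 50 after the start) matched 5 of the 7 genes, Hmgcs1, Idi1, Cyp51, Insig1 and Srebf2. Capitals mark matches to the sterol regulatory element TCACNCCAC and to CCAAT, the box bound by NF-Y, a partner of SREBP factors, on either strand. The plus-strand windows are chr15:82147019-82147318 for Srebf2, chr5:28071162-28071461 for Insig1 and chr13:119690101-119690400 for Hmgcs1.
Srebf2: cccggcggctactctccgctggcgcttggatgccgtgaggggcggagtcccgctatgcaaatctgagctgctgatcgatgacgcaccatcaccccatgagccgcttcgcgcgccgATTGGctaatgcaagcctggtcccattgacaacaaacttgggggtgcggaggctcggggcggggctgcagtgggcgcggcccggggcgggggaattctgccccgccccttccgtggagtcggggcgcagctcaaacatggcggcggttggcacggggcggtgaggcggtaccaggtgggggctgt
Insig1: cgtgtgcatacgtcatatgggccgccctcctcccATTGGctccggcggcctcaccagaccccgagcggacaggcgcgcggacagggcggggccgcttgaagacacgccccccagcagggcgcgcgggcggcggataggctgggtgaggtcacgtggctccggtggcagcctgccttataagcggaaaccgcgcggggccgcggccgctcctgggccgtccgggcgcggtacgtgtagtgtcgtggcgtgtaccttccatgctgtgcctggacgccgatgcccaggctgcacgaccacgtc
Hmgcs1: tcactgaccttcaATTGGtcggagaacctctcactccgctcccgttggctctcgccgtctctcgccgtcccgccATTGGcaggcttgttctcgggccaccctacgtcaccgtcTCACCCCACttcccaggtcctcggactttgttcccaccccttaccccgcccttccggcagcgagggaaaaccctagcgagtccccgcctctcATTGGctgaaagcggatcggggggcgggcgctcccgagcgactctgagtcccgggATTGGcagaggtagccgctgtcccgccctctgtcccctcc
The element TCACNCCAC was found in the window of 1 of the 5 genes, Hmgcs1, starting 137 bases before the start site, and in 1.24% of the 32851 promoters of the table. CCAAT was found in 5 of the 5, with 4 matches in Hmgcs1, against 37.4% of all promoters. The Sp1 box GGGCGG was found in 5 of the 5 (35.7% of all), and the E-box CACGTG in 1, Insig1 (7.15% of all). No match means only that these letters are not in this window.

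Idi1 encodes the isomerase that makes the reactive isoprenoid unit, and with the deposited scaling it was the member with the least difference. It stood at 2428, 2382 and 1896 in old 1, 2 and 3, against 2659.9, 2183 and 2101 in young 1, 2 and 3. The groups overlapped, and both spread widely. The log2 fold change was -0.05 ± 0.13 (adjusted p = 0.784), with a 95% interval from -0.35 to 0.25, so a change of that size in either direction is not excluded. Its sign turned with the scaling and with single libraries: it was 0.031 with upper-quartile scaling, 0.05 without young 1 and 0.06 without old 3. With the length and GC trends removed Idi1 was at -0.26 and did not pass (adjusted p = 0.0890), a larger difference than that of Srebf2 after the same step. Gm48574 on the opposite strand, not analysed here, shares 323 of the 3505 exonic bases of Idi1.

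Fdft1 encodes squalene synthase, the enzyme that commits isoprenoids to sterols. It stood at 2483, 2462 and 2310.3 in old 1, 2 and 3, against 2310.1, 2075 and 1936 in young 1, 2 and 3. The old libraries were higher, but old 3 and young 1 had almost the same value. The means were 2419 ± 94.4 in old nerves and 2107 ± 189 in young nerves, with a log2 fold change of 0.20 ± 0.08 that did not pass (95% interval 0.01 to 0.39, adjusted p = 0.0952). It passed with upper-quartile scaling (0.28, adjusted p = 0.0412) and after trend removal (0.27, adjusted p = 0.0457). Of the exonic bases of Fdft1 in GENCODE release M21, 774 of 4227 are also exonic in Ctsb on the opposite strand. Ctsb, the lysosomal protease cathepsin B, stood at 59054, 60068 and 57951 in old 1, 2 and 3, against 45879, 47219 and 47742 in young 1, 2 and 3. It rose by a log2 fold change of 0.33 ± 0.09 (adjusted p = 0.0318). The sources used here do not say whether the libraries kept strand, so reads from the shared bases cannot be told apart and the Fdft1 value is uncertain.

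Sqle encodes squalene epoxidase, an oxygen-dependent control point of the route. It stood at 2087, 2162 and 1893 in old 1, 2 and 3, against 2664, 2279 and 2305 in young 1, 2 and 3. The old libraries were all lower, by a narrow margin between old 2 and young 2. The means were 2047 ± 139 in old nerves and 2416 ± 215 in young nerves, with a log2 fold change of -0.24 ± 0.09 (95% interval -0.45 to -0.03, adjusted p = 0.0749), which did not pass. With the length and GC trends removed it was -0.32 and passed (adjusted p = 0.0265).

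Cyp51 encodes lanosterol demethylase, the cytochrome P450 that starts the trimming of lanosterol. It stood at 1809.9, 1778 and 1608 in old 1, 2 and 3, against 2489, 1991 and 2042 in young 1, 2 and 3. The groups did not overlap, and young 1 stood above the other young mice. Cyp51 fell to 1732 ± 108 in old nerves, against 2174 ± 274 in young nerves, a log2 fold change of -0.32 ± 0.10 (95% interval -0.56 to -0.08, adjusted p = 0.0469). This call was marginal, since it was lost in each of the 6 fits without 1 library, where the adjusted p ran from 0.0667 (without young 2) to 0.116 (without young 1), and in edgeR (adjusted p = 0.0521). Cyp51 did pass in DESeq2 (adjusted p = 0.0267) and in the authors' deposited table (FDR 0.0262). With the length and GC trends removed it was at -0.33 and passed (adjusted p = 0.0394). Akap9 on the opposite strand shares 166 of the 4415 exonic bases of Cyp51, and it was at -0.21 ± 0.07 (adjusted p = 0.0605).

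**Figure D2:**
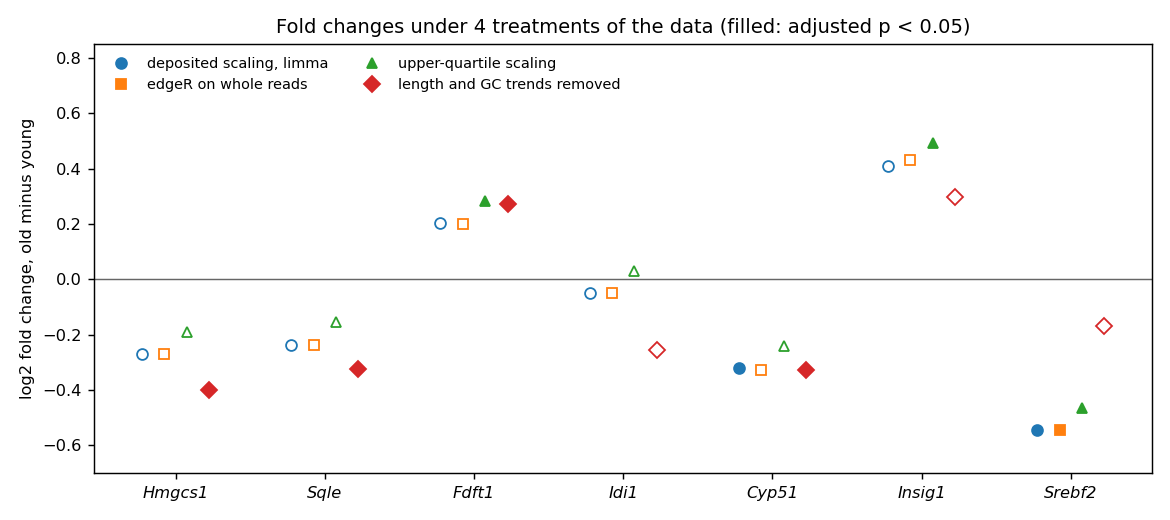
Log2 fold change, old minus young, of each gene under 4 treatments of the data; filled symbols have an adjusted p under 0.05. Srebf2 moves from -0.55 with the deposited scaling to -0.17 with the length and GC trends removed, while Hmgcs1 moves from -0.27 to -0.40.

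In the mm10 build Srebf2 lies on chromosome 15 from 82147269 to 82204960 and Sqle on the same chromosome from 59315092 to 59331193. Hmgcs1 and Idi1 lie on chromosome 13, from 119690351 to 119708260 and from 8885606 to 8892396. Cyp51 and Insig1 lie on chromosome 5, from 4080674 to 4104697 and from 28071412 to 28078662, and Fdft1 lies on chromosome 14 from 63145151 to 63179578.

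Ratios between 2 of the genes within a library do not depend on how libraries are scaled. Of the 21 pairs, 17 had groups that did not overlap, each with an exact two-sided permutation p of 0.1. That is the smallest that 3 against 3 allows, so no pair can pass. The pairs share genes, and pairs of other genes were not counted. Counts of pairs are therefore no sign of a trait particular to these genes. The ratio of Insig1 to Srebf2 was 1.09, 0.772 and 0.714 in old 1, 2 and 3, against 0.440, 0.468 and 0.401 in young 1, 2 and 3. Its log2 ratio was 0.96 higher in old nerves, the largest difference of the 21 pairs with the deposited values. The ratio of Hmgcs1 to Insig1 was 2.39, 3.30 and 3.18 in old 1, 2 and 3, against 4.96, 4.50 and 4.65 in young 1, 2 and 3, a difference in log2 ratio of -0.68. The ratio of Sqle, which uses squalene, to Fdft1, which makes it, was 0.840, 0.878 and 0.819 in old 1, 2 and 3, against 1.15, 1.10 and 1.19 in young 1, 2 and 3. The doubt over reads shared with Ctsb applies to that ratio too. Hmgcs1 and Sqle kept close to each other, with a ratio of 5.81, 5.74 and 5.69 in old 1, 2 and 3, against 5.83, 6.14 and 5.68 in young 1, 2 and 3 (exact permutation p = 0.5). Ratios do change when length and GC trends are removed, a repeat chosen after seeing the data, in which 14 of the 21 pairs had groups that did not overlap. The difference in log2 ratio was then 0.46 for Insig1 over Srebf2, and -0.70 for Hmgcs1 over Insig1, which was the largest in size. It was -0.60 for Sqle over Fdft1 and -0.077 for Hmgcs1 over Sqle, whose groups then did not overlap. The mean log2 ratios of Hmgcs1, Sqle, Idi1 and Cyp51 to Srebf2 turned from higher to lower in old nerves. Hmgcs1 over Srebf2 was at 0.27 before the step and at -0.23 after it. The groups of Cyp51 over Srebf2 overlapped before the step, and those of Idi1 over Srebf2 overlapped after it (-0.088).

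**Figure D3:**
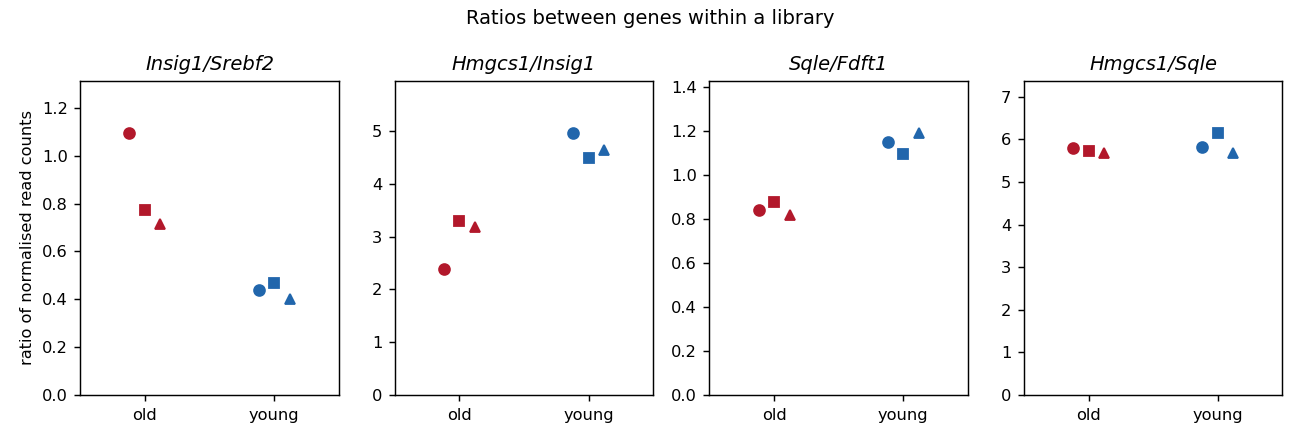
Ratios of normalised read counts within each library for 4 pairs of genes, old left of young, axes from 0; circle, square and triangle are libraries 1, 2 and 3 of a group. Insig1 over Srebf2 is 0.714 to 1.09 in old nerves and 0.401 to 0.468 in young nerves, and Hmgcs1 over Sqle overlaps between the groups.

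Per kilobase of the longest coding transcript, Hmgcs1 had the highest level of the 7 in both groups, at 3396 normalised reads per kb in old nerves and 4103 in young nerves. Insig1 came next in old nerves, between 1256 and 1879 per kb, above Srebf2, which lay between 912 and 958 there. In young nerves their order was turned, with Insig1 between 1045 and 1162 per kb and Srebf2 between 1310.2 and 1402. Sqle (686 to 784 per kb), Idi1 (626 to 802) and Fdft1 (625 to 672) followed in old nerves, and the range of Idi1 overlapped those of both others. Cyp51 had the lowest mean level, at 441 per kb in old nerves and 553 in young nerves, where its range of 506 to 633 overlapped that of Fdft1 at 523 to 625.

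The genes varied together between mice of the same age. In young nerves, young 1 had the highest value in 7 of the 7 genes, with a mean deviation of 0.13 on the log2 scale from the young mean. In old nerves, old 3 had the lowest value in 6 of the 7, with a mean deviation of -0.13, and Srebf2 was the exception. Of the 21 sterol synthesis enzymes, 17 were highest in young 1 among the young libraries and 15 were lowest in old 3 among the old. That list includes Hmgcs1, Idi1, Fdft1, Sqle and Cyp51, so its counts are not separate from those of the 7 genes. For all tested genes the shares were 32.5% and 33.2%. With TMM scaling the counts for the 7 genes were the same, and after trend removal they were 5 for young 1 and 7 for old 3. Without both of these libraries, a repeat chosen after seeing the data, Srebf2 was the 1 gene lower (-0.53, adjusted p = 0.00763), Insig1 (0.56, adjusted p = 0.0435) and Fdft1 (0.30, adjusted p = 0.0357) were higher, and Cyp51 did not pass (-0.17, adjusted p = 0.139). Hmgcs1 was at -0.14 and Sqle at -0.11 in that repeat.

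**Figure D4:**
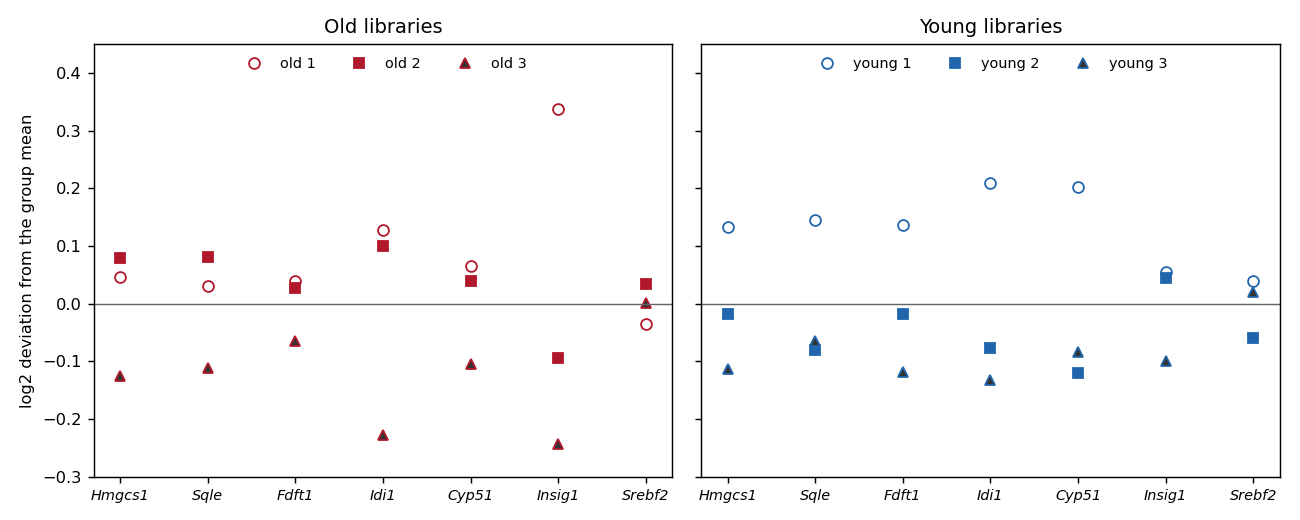
Deviation of each library from the mean of its own group on the log2 scale, for the 7 genes, old libraries left and young libraries right. Young 1 lies above 0 in every gene of the young panel, and old 3 lies lowest in every gene of the old panel other than Srebf2.

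Likeness of pattern was measured as the root mean square difference over the 6 libraries between the log2 values of 2 genes, each centred on its own mean. Among 64 genes of the pathway lists, Hmgcs1 and Sqle were each other's nearest (0.038), and Sqle was also nearest to Cyp51 (0.056). Fdft1 was nearest to Nsdhl (0.055), which encodes a sterol dehydrogenase, and Idi1 to Acat2 (0.078), an acetyl-CoA acetyltransferase at the head of the route. Insig1 was nearest to Rnf139 (0.11) and Srebf2 to Dhcr7 (0.098). Among all 7941 tested genes with a mean at or above the median, the nearest 3 to Hmgcs1 were Sqle, Lama1 (0.045) and Fam126a (0.047). Those of Sqle were Ccdc25 (0.033), Hmgcs1 and Aldh5a1 (0.041), and those of Cyp51 were B3galt1 (0.031), Sqle and Hmgcs1 (0.061). The nearest to Fdft1 were Pls3 (0.034), Pnpt1 (0.041) and Sept7 (0.044), and to Idi1 Idh1 (0.059), Prkcd (0.069) and Nalcn (0.073). Insig1 was nearest to Gas2l3 (0.044), Gpm6a (0.049) and Bzw1 (0.064), and Srebf2 to Vps13c (0.029), Slc35e3 (0.031) and Polr2a (0.041).

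Of 21 sterol synthesis enzymes, 3 fell, Cyp51 and Dhcr7 among them, 1 rose (Fdps) and 17 did not pass, with a median log2 fold change of -0.02. Of the 16 that are not among the 7 genes, 2 fell and 1 rose. Among all tested genes 18.7% fell and 15.9% rose. Dhcr7, which makes cholesterol in the last step of a parallel branch, stood at 777, 958 and 774 in old 1, 2 and 3, against 1341, 1233 and 1209 in young 1, 2 and 3 (-0.60 ± 0.11, adjusted p = 0.00805). The groups did not overlap. Dhcr7 kept its call with each library left out and after trend removal (-0.62).

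Fdps, the synthase of farnesyl diphosphate, averaged 381 ± 12.2 in old nerves and 280.1 ± 20.4 in young nerves (0.44 ± 0.11, adjusted p = 0.0203). It did not pass without young 2, young 3, old 1 or old 2 (adjusted p 0.0534 to 0.0755) or after trend removal (0.19, adjusted p = 0.237). With those trends removed 6 of the 21 enzymes fell and 1 rose, against 12.7% and 10.2% of all genes so tested. With upper-quartile scaling 2 of the enzymes fell and 4 rose. That scaling called 5777 of all 15882 tested genes, both directions together, and moved the median log2 fold change of all genes up to 0.0806. In each of the 6 fits with 1 library left out 2 fell, and the rises numbered from 0 (without young 2, young 3, old 1 or old 2) to 3 (without old 3). Over all genes those fits called from 2589 to 6117, both directions together.

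**Figure D5:**
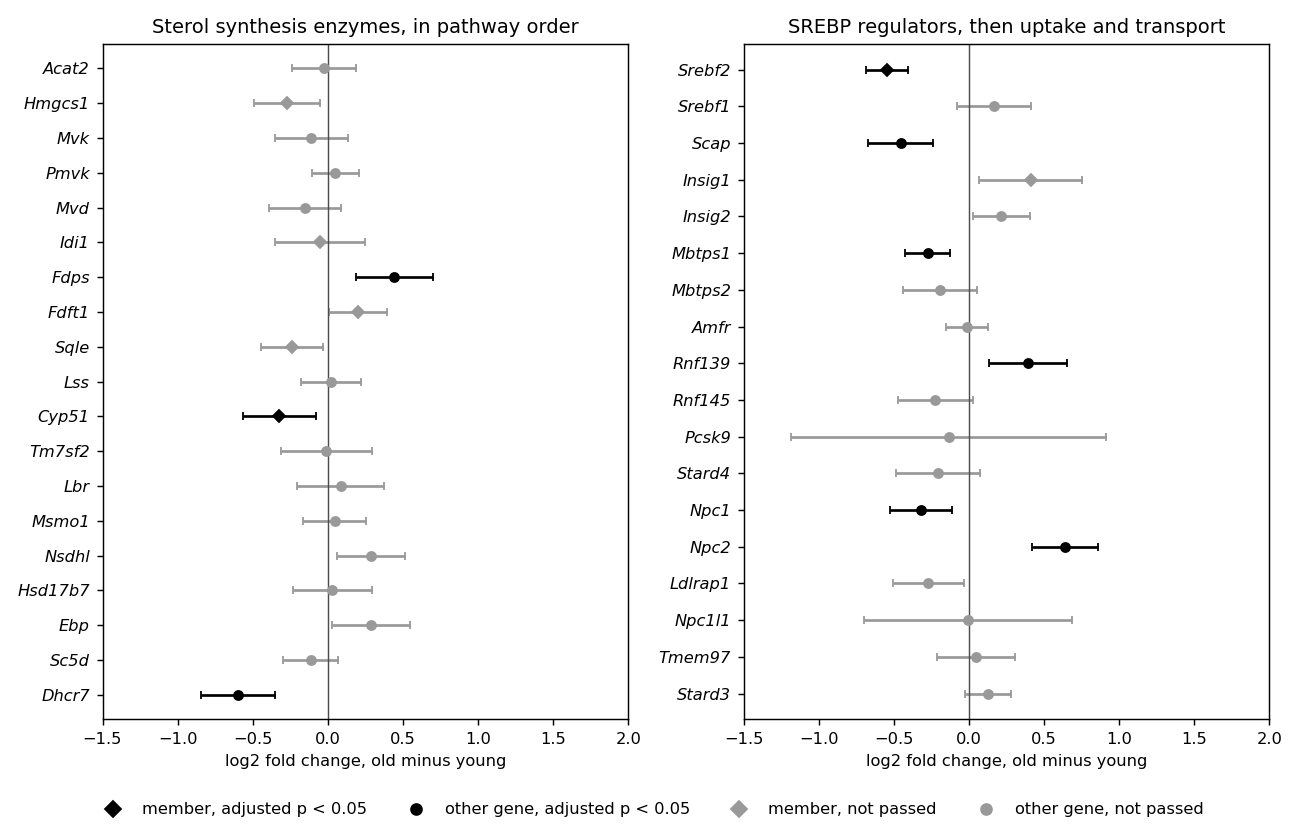
Log2 fold changes, old minus young, with limma's 95% intervals for sterol synthesis enzymes in pathway order (left) and for SREBP regulators and uptake and transport genes (right). Diamonds are the 7 genes, circles the other genes, and black marks an adjusted p under 0.05; Dhcr7 at -0.60 and Srebf2 at -0.55 lie below 0 and Npc2 at 0.64 above it.

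Among 12 genes of SREBP processing and feedback, which include Srebf2 and Insig1, 4 fell, 1 rose and 7 did not pass (median log2 fold change -0.17). For all tested genes the shares were 18.7% lower and 15.9% higher. Scap, the escort that senses sterols, fell to 2723 ± 319 in old nerves, against 3718 ± 91.6 in young nerves (-0.46 ± 0.09, adjusted p = 0.0112), and Mbtps1, the first protease to cut SREBPs, fell by 0.28 on the log2 scale (adjusted p = 0.0175). Rnf139, a ubiquitin ligase of the endoplasmic reticulum, rose by 0.39 ± 0.11 (adjusted p = 0.0327). Srebf1, which encodes the related factor of fatty acid synthesis, was at 0.16 ± 0.10 (adjusted p = 0.259), and Insig2, a paralog of Insig1, was at 0.22 ± 0.08 (adjusted p = 0.0778).

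With the length and GC trends removed none of these 12 genes was called lower in limma, against 4 before (Scap was at -0.10 and Mbtps1 at -0.13). Then 2 were higher, Srebf1 (0.49, adjusted p = 0.0380) and Rnf139 (0.32, adjusted p = 0.0472). Among all genes so tested 12.7% were lower and 10.2% higher. Mbtps1 did not pass without young 2 or young 3 (adjusted p up to 0.0741). Rnf139 passed in 1 of the 6 fits with a library left out, that without old 3 (0.52, adjusted p = 0.00290), and its adjusted p in the fits without young 1, young 2, young 3, old 1 or old 2 reached 0.0937. Insig2 passed without old 3 (0.27, adjusted p = 0.0375) and with upper-quartile scaling (0.30, adjusted p = 0.0309).

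Of 9 genes for sterol uptake and transport, 2 fell and 1 rose, with a median of -0.13, against 18.7% lower and 15.9% higher among all tested genes. Npc1 and Npc2 work in sequence to export cholesterol from lysosomes, and they moved in opposite directions. Npc1 fell to 5289 ± 425 in old nerves, against 6604 ± 510 in young nerves (-0.32 ± 0.09, adjusted p = 0.0291), but not without young 2, young 3, old 1 or old 2 (adjusted p up to 0.106) or with the trends removed (-0.14, adjusted p = 0.293). Npc2 rose to 7255 ± 835 in old nerves, against 4632 ± 216 in young nerves (0.64 ± 0.09, adjusted p = 0.00564), and passed in each of those repeats, with adjusted p-values up to 0.0301 in the fits with 1 library left out.

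Of 13 genes listed as driven by SREBP1, 3 fell (Elovl6, Acss2 and Acly) and 1 rose (Scd1), against 18.7% and 15.9% of all tested genes. They are mostly genes of fatty acid synthesis, but the sterol enzyme Mvd is among them. The median of -0.15 is the value of Mvd itself. Scd1, the stearoyl-CoA desaturase, rose to 33622 ± 3920 in old nerves, against 22324 ± 1134 in young nerves (0.59 ± 0.11, adjusted p = 0.00861). Elovl6, a fatty acid elongase, fell to 1789 ± 229 in old nerves, against 3040 ± 239 in young nerves (-0.77 ± 0.11, adjusted p = 0.00544). Acss2 (-0.41 ± 0.10, adjusted p = 0.0192) and Acly (-0.25 ± 0.07, adjusted p = 0.0324), which supply acetyl-CoA to both routes, were less stable. Acss2 did not pass without young 1, young 2 or young 3 (adjusted p up to 0.0625), and Acly passed in 1 of the 6 fits with a library left out, that without old 3 (adjusted p = 0.0147, and up to 0.102 in the fits without young 1, young 2, young 3, old 1 or old 2). Acly also did not pass with the trends removed (-0.10, adjusted p = 0.282) or with upper-quartile scaling (-0.17, adjusted p = 0.0793).

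Among 11 genes of LXR, the receptor of oxidised sterols, and of sterol conversion, 2 rose and 1 fell (median 0.07). All tested genes had 15.9% higher and 18.7% lower. Ch25h, which makes an oxysterol that blocks SREBP processing, stood at 118, 121 and 121 in old 1, 2 and 3, against 38.5, 39.3 and 46.2 in young 1, 2 and 3. It rose by 1.52 ± 0.18 (adjusted p = 0.00464), and its level was low in both groups. Cyp27a1, a mitochondrial sterol hydroxylase, rose to 1573 ± 128 in old nerves, against 873 ± 48.7 in young nerves (0.85 ± 0.09, adjusted p = 0.00399). Abcg1, a sterol exporter, fell to 2406 ± 500 in old nerves, against 4426 ± 211 in young nerves (-0.90 ± 0.14, adjusted p = 0.00623).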

How the data were processed

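Total RNA of 6 auditory nerve samples was sequenced after library preparation with a TruSeq RNA kit, per the labels' protocols. The submitters' processing notes name TopHat2, Partek, DESeq2 and the mm10 build, without versions or settings. Columns of the deposited table are named as controls or with O for old, and the controls were taken as the young mice because its header compares old with young. The deposited values are a signal, read counts divided by the authors by 1 factor per library, as the values themselves show. Whole reads were recovered for 99.9305% to 99.9712% of values above 0 within a tolerance of 0.1. The deposited p-value and FDR are the authors' own, and the deposited fold change is a signed score, old over young, per the file headers. The end positions printed are the deposited stop less 1.

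The main test was limma (3.58.1) with trended variances on log2(value + 1), two-sided, on genes that edgeR's filterByExpr kept (minimum count 10, minimum total 15). edgeR's quasi-likelihood test (4.0.16) on the recovered reads called 5418 genes, against 5493 in limma. DESeq2 (1.42.0), TMM and upper-quartile scaling, other pseudocounts, no filter, a replicate block and each library left out were alternatives. Length and GC trends (longest coding transcript in GENCODE M21, found for 93.8% of tested genes) were fitted per library with mgcv (1.9.3) and subtracted. Only the main limma test was run on simulated counts, which held no length or GC trend and fewer changed genes than were called here. The alternatives were not checked in that way. Pathway genes were named where they passed, with Dhcr7, Insig2, Srebf1 and Scap named regardless. Some genes of the lists enter the counts but are neither named nor drawn here. The members and lists were chosen with earlier results of these data known. Mvd and 1 other gene stand in more than 1 list. Ctsb, Akap9 and the marker genes were named outside that rule, after their values were seen.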

Additional observations from a re-analysis of the deposited data

How the results depend on the processing

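Of the 7 genes, Srebf2 kept its call in every alternative other than removal of the length and GC trends (-0.17, and -0.17 with the replicate block added). Cyp51 lost its call in edgeR (-0.33), with TMM (-0.32) or upper-quartile scaling (-0.24), with the replicate block (-0.32) and with the block and trends removed (-0.33). It kept its call in DESeq2 (-0.32), in the authors' deposited FDR (-0.33) and with the trends alone removed (-0.33). Hmgcs1 passed in DESeq2 (-0.27), in the authors' deposited FDR (-0.28) and with the trends removed (-0.40), and Sqle with the trends removed (-0.32). Fdft1 passed with upper-quartile scaling (0.28) and with the trends removed (0.27). Insig1 passed in DESeq2 (0.43), in the authors' deposited FDR (0.43) and with upper-quartile scaling (0.49). Idi1 changed sign with upper-quartile scaling (0.031). In fits with 1 library left out the values ran from -0.38 to -0.22 for Cyp51, from -0.12 to 0.06 for Idi1, from 0.24 to 0.53 for Insig1 and from 0.14 to 0.27 for Fdft1. Without both young 1 and old 3, chosen after seeing the data, Cyp51 was at -0.17, Idi1 at 0.17, Insig1 at 0.56 and Fdft1 at 0.30.

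The number of the 7 genes lower was 1 in edgeR, with TMM or upper-quartile scaling and with the replicate block, 0 with the block and trends removed in limma, and 1 in each fit with 1 library left out and without both young 1 and old 3. The number higher was 1 in DESeq2, in the authors' deposited FDR and with the trends removed, 2 with upper-quartile scaling, 0 to 1 with 1 library left out and 2 without both libraries. Of the 21 enzymes 6 fell with the trends removed. The number that rose was 2 in DESeq2 and the authors' FDR, 4 with upper-quartile scaling, 0 with the block in limma, with or without the trends, 0 to 3 with 1 library left out and 4 without both libraries. Of the 12 genes of SREBP processing and feedback, those lower numbered 0 with the trends removed, 2 with the block, 0 with both in limma and 2 to 5 with 1 library left out. Those higher numbered 2 in DESeq2, in the authors' FDR and with the trends removed, 3 with upper-quartile scaling, 0 with the block in limma, with or without the trends, 0 to 3 with 1 library left out and 2 without both libraries. Of the 9 uptake and transport genes those lower numbered 0 in limma with the trends removed, with or without the block, 1 with the block and 1 to 2 with 1 library left out. Of the 13 genes listed as driven by SREBP1 those lower numbered 1 with the block, with or without the trends, and 1 to 4 with 1 library left out, and those higher numbered 2 with the trends removed. Of the 11 genes of LXR and sterol conversion 1 was higher with the block and trends removed. Over all genes, both directions together, 3409 passed with the trends removed, 2711 with the replicate block, 828 with both and 2589 to 6117 with 1 library left out. The number was 5777 with upper-quartile scaling, 5472 with TMM scaling and 5418 in edgeR. It was 6210 in DESeq2, 6062 in the authors' FDR and 5036 without both young 1 and old 3. Same-numbered old and young libraries did not deviate together (correlations across genes -0.29, -0.41 and -0.050). So few libraries cannot show whether those with the same number were handled together, and a pairing is not excluded. Upper-quartile scaling moved the median log2 fold change of all genes to 0.0806. The other pseudocounts and the fit without a filter changed no call among the 7 genes.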
